A study of Mus musculus with 24 samples.

Results

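Germinal center B cells were set against memory B cells of the same response, both taken from the spleen on day 7 after immunization. The comparison held 6 of the 24 arrays of the series, 3 for each group, chosen by sample title. All mice were female, wild-type C57BL/6, 8 to 10 weeks old when given NP-CGG, the hapten NP on a carrier protein, in alum (1 label field writes NP-CG). For both groups, spleen cells binding biotinylated antibodies against CD3, CD90, CD5, F4/80, NK1.1, DX5, Gr1, TER119, IgM and IgD were first removed on magnetic columns. Germinal center cells were then sorted as NIP-binding B220+ IgG1+ CD38dull PNA+ cells, and memory cells as NIP-binding B220+ IgG1+ CD38+ PNA- cells, where NIP is a relative of NP that binds the same receptors. Total RNA was extracted with TRIZOL, amplified with the Ovation system and hybridized to Affymetrix Mouse Genome 430 2.0 arrays. No label says whether the 3 replicates of a group came from separate mice. Each p-value therefore measures only the spread between arrays within groups, estimated from all 24 arrays of the series.

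Germinal centers are clusters of B cells in the follicle that divide rapidly while their antibody genes mutate, and the transcription factor Bcl6 keeps cells in this state. Memory B cells leave the cycle, recirculate and persist without antigen. They respond quickly on a second encounter, and surface proteins such as Cd80 and Pdcd1lg2 (PD-L2) mark subsets of them in the mouse. Genes of the cell cycle are switched on in waves, the S phase genes through E2F factors and many genes of G2 and mitosis through a promoter element called CHR, often beside CCAAT boxes.

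Each gene is given by its deposited GCRMA value on the log2 scale, always for replicates 1, 2 and 3 in that order. A log2 change is the germinal center mean minus the memory mean, with the standard error of the limma fit. Of 18193 genes with a named probe set, 11208 lay above the array median on at least 3 arrays and were tested. Calls needed an adjusted p below 0.05, by the Benjamini-Hochberg method, and a log2 change of 1 or more in size. Values ended at a floor of 2.15, where 40.6% to 42.3% of the probe sets of an array lay, and the 6 array medians were 2.39 to 2.48. With 3 arrays a group, the number of arrays sets the precision. A group whose signal stayed at or below the array median throughout is called at background, and the change is then a lower bound.

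The sorted cells carried B cell transcripts throughout. Cd79a, a chain of the antigen receptor complex, measured 14.13, 14.09 and 14.16 in germinal center cells and 14.68, 14.77 and 14.77 in memory cells. Ms4a1 (CD20) lay between 14.68 and 14.97 on all 6 arrays, and Ptprc, which encodes CD45 and its B220 form, between 13.84 and 14.12. Cd38 and Ighg1, the other genes behind the gates, were not analysed here. Memory replicate 1 stood apart from the other memory arrays. Across all probe sets, its mean correlation with the 3 germinal center arrays was 0.9709. That of memory replicate 2 was 0.9534 and that of memory replicate 3 was 0.9562. Probe sets at the floor were included in these and the following correlations, which can raise them. Within the groups, correlations across probe sets were 0.985 to 0.9908 for germinal center arrays and 0.9839 to 0.9946 for memory arrays. Counts of called genes are therefore given with all 6 arrays and again without memory replicate 1. After the change of a gene printed by array, "without it" gives the change without memory replicate 1. All other changes are those of the 6 arrays.

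The promoters of 7 genes are shown because the mitosis and replication lists differ in the letters they hold. They come from RefSeq on GRCm38.p6 and run from 250 bases before to 50 after the start site, on the strand of the gene. Plk1, Aurka, Cdc20 and Ube2c act in mitosis, and capitals mark the CHR (TTTGAA, or TTCAAA where it lies on the other strand) and the CCAAT box (CCAAT or ATTGG).
Plk1, chr7:122159185-122159484, plus strand: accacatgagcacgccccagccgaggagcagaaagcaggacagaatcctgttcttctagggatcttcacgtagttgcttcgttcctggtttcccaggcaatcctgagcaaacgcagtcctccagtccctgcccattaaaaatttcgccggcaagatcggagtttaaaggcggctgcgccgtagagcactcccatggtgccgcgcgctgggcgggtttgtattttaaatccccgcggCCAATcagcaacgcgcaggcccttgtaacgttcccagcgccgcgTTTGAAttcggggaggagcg
Aurka, chr2:172370521-172370820, minus strand: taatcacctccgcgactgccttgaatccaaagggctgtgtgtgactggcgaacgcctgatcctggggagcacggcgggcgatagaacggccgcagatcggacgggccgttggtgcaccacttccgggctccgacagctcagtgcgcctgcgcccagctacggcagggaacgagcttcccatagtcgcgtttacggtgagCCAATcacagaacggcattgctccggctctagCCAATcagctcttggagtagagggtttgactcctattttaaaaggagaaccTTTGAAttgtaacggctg
Cdc20, chr4:118437294-118437593, minus strand: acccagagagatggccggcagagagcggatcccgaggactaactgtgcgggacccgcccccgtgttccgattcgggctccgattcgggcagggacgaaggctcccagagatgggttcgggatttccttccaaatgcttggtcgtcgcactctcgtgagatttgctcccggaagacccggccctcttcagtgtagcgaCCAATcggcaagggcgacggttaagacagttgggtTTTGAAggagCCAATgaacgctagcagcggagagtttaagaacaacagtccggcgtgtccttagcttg
Ube2c, chr2:164769679-164769978, plus strand: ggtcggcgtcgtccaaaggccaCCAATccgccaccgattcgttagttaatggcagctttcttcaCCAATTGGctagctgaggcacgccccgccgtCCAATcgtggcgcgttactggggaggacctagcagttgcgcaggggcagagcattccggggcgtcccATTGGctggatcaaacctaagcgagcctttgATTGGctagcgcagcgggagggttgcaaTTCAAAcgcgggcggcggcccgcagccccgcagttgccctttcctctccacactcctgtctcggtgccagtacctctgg
Mcm5 and Mcm6 are subunits of the replicative helicase, and capitals mark matches to the E2F letters given below.
Mcm5, chr8:75109259-75109558, plus strand: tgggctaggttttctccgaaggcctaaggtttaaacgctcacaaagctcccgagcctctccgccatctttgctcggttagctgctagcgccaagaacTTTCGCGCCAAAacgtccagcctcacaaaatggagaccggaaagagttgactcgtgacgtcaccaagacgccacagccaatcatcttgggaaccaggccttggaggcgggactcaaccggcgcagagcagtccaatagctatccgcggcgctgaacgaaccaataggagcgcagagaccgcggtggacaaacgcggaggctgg
Mcm6, chr1:128359656-128359955, minus strand: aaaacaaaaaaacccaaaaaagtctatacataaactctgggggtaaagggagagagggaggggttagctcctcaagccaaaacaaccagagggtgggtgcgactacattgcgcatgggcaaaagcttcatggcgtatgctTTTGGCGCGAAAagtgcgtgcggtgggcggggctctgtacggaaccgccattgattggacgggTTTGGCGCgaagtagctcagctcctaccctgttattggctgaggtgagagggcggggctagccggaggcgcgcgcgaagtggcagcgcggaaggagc
Plaur, the urokinase receptor, was among the largest falls, and its promoter is shown as 1 of the few of lower genes that hold an AP-1 site (TGAGTCA or TGACTCA, in capitals).
Plaur, chr7:24462233-24462532, plus strand: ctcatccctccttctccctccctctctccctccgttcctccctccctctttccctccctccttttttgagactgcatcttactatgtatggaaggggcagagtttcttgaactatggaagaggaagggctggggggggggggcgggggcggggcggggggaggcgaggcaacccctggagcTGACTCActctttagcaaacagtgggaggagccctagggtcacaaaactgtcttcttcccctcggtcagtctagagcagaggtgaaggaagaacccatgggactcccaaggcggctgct

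Counting from the start site, the CHR of Plk1 began at base 31 and that of Aurka at base 33, while those of Cdc20 and Ube2c began 18 and 29 bases before it. Promoters were matched for 9102 of the 11208 genes tested. A gene with several promoters counted once, as holding given letters if any of its promoters did. The CHR was present in 17 of 23 mitosis genes with a promoter (73.9%), in 4 of 27 genes of DNA replication (14.8%) and in 14.8% of all genes tested. E2F matches (TTTCCCGC, TTTCGCGC, TTTGCCGC or TTTGGCGC on either strand) were found in 1 mitosis gene (4.35%), in 13 replication genes (48.1%) and in 4.87% of all genes tested. The 2 helicase promoters each held an overlapping pair of E2F matches on opposite strands, and Mcm6 held a further match. A CCAAT box stood in 73.9% of mitosis genes, 59.3% of replication genes and 43.3% of all genes tested. Among genes called with and without memory replicate 1, 22 of 1009 genes higher in germinal center cells held the AP-1 letters (2.18%). Of genes lower there, 66 of 1050 held them (6.29%), against 4.24% of all genes tested and 5.95% of all genes of the promoter table. The AP-1 letters were in 1 of 22 early activation genes (4.55%) and in none of 14 memory markers. Genes called higher and genes called lower held the E2F letters in 8.82% and 3.24% of cases and the CHR in 21.8% and 15.1%. Over all genes of the promoter table, 2.6% held the E2F letters and 20.2% the CHR. The cyclic AMP response element, TGACGTCA was in 3.47% and 2.1%, against 3.68% of all genes tested. A match describes the letters of this window and nothing of what binds there.

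**Figure D1:**
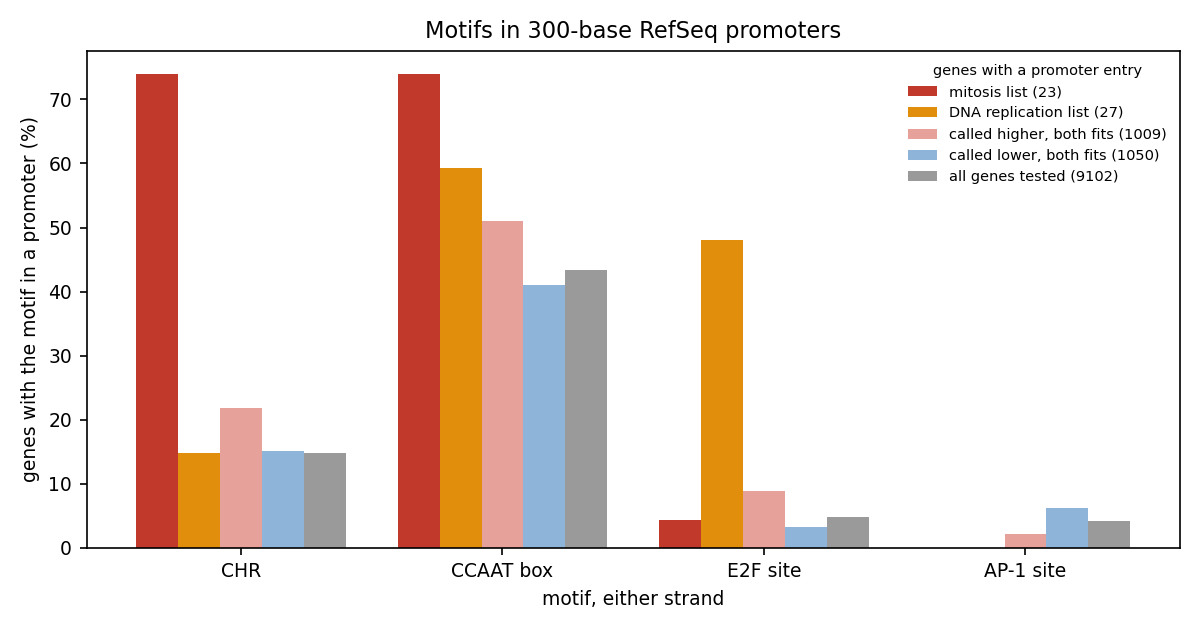
Percent of genes (vertical axis) whose promoter holds the CHR, the CCAAT box, an E2F match or an AP-1 match (horizontal axis), for the mitosis list, the replication list, genes called higher and genes called lower in germinal center cells, and all genes tested. The CHR stands out in the mitosis list at 73.9% and the E2F letters in the replication list at 48.1%, against 14.8% and 4.87% of all genes tested.

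Of the 11208 genes, 1298 were higher in germinal center cells (11.6%) and 1354 were lower (12.1%) by limma at the stated thresholds. The median change was 1.76 among the higher genes and -1.82 among the lower genes, and over all genes tested it was 0.01. In RNA of sorted cell pools, fewer cells of a type and less RNA per cell cannot be told apart. At an unadjusted p below 0.05, 5354 genes differed. The 6 arrays showed no overlap between the groups for 1220 of the genes called higher and 1281 of those called lower, whereas 47.5% of all genes tested had no overlap. Changes of 5 or more were found for 55 higher and 99 lower genes. Memory cells were at background for 44 of the higher genes, and germinal center cells for 83 of the lower genes.

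Without memory replicate 1, 1421 genes were higher (12.7%) and 1465 lower (13.1%), with median changes of 1.93 and -1.90. The 2 fits shared 1236 higher and 1301 lower genes, 62 and 53 were called with all arrays alone, and 185 and 164 were called without memory replicate 1 alone. Memory replicate 1 lay toward the germinal center arrays in 1292 of the 1421 genes called higher without it (90.9%), by a median of 46.4% of the log2 distance between the groups. For the 1465 genes called lower it lay that way in 1312 (89.6%), by a median of 24.3%. The same count for memory replicate 2, each time among genes called without that array, was 220 of 1153 higher genes (19.1%) and for memory replicate 3 it was 339 of 1169 (29.0%). For these arrays the mean of the remaining memory arrays included memory replicate 1, so their shares are no independent reference. Germinal center replicate 3 lay toward the memory arrays in 1227 of 1452 higher genes (84.5%), by a median of 21.7%. Among lower genes it did so in 799 of 1344. For germinal center replicate 1 the shares were 29.4% of higher and 69.9% of lower genes, and for germinal center replicate 2 they were 42.4% and 32.8%. Each set of genes was chosen from the arrays that remained, which can itself place the left-out array toward the other group. The shares, those of memory replicate 1 included, are therefore descriptive and no test.

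**Figure D2:**
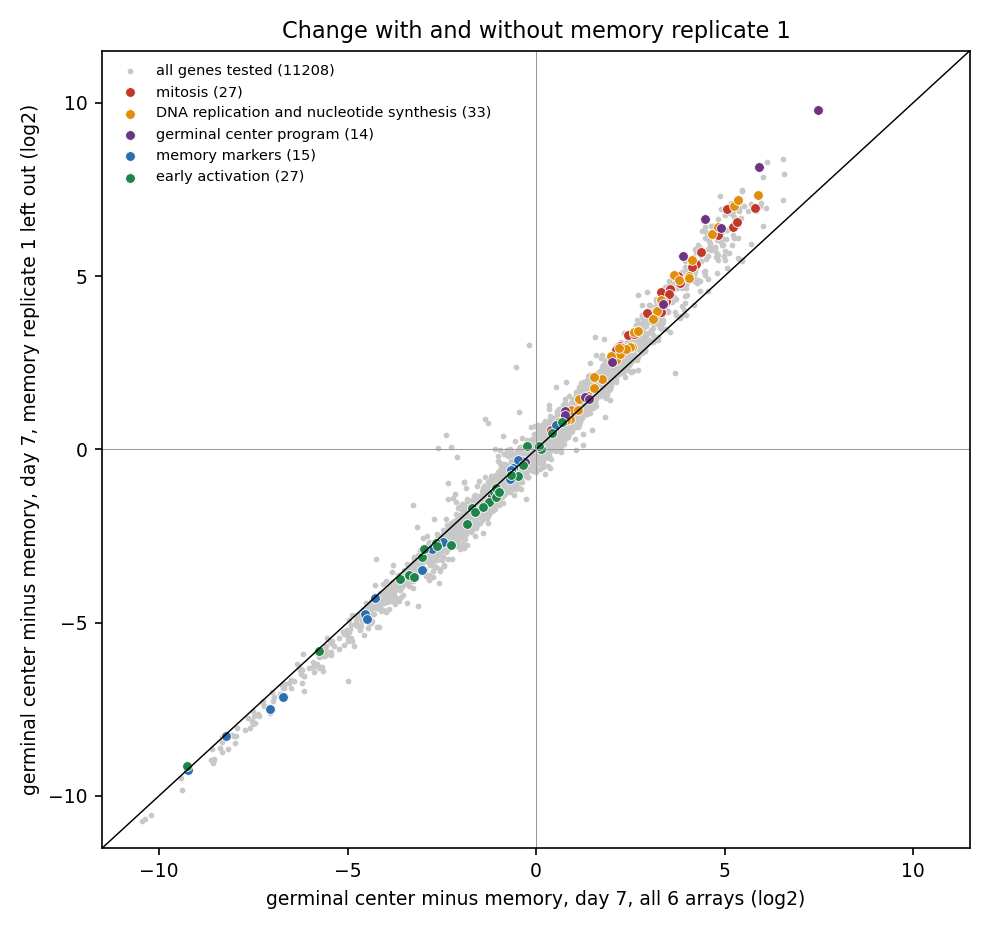
Log2 change of each gene tested with all 6 arrays (horizontal axis) and with memory replicate 1 left out (vertical axis), with 5 gene lists in colour and the diagonal marking equal values. The change was larger in size without that array for 27 of 27 mitosis genes, 32 of 33 replication genes and 14 of 14 germinal center program genes, against 11 of 15 memory markers and 23 of 27 early activation genes.

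Gcsam, a signalling adaptor of germinal center B cells encoded on chromosome 16, showed the largest rise by the naming rule. It measured 12.16, 12.48 and 11.69 in germinal center cells and 9.21, 2.26 and 2.40 in memory cells, a log2 change of 7.49 ± 1.28 (SE, adjusted p = 1.23e-04 by limma) and at least 835-fold higher without memory replicate 1, when the memory arrays were at background. Germinal center arrays were high and alike, and memory replicate 1 lay between them and the other memory arrays. Dnase1, a secreted endonuclease, measured 9.57, 9.39 and 9.03 against 4.01, 2.15 and 2.15 (6.56 ± 0.31, adjusted p = 1.19e-11, or at least 122-fold higher without it). Tox2, an HMG-box transcription factor, measured 9.20, 9.01 and 9.84 in germinal center cells against 5.58, 2.27 and 2.39 in memory cells (5.94 ± 0.68, or at least 123-fold higher without it). In both genes the memory arrays other than replicate 1 were at or near the floor. The deubiquitinase gene Otub2 changed by 6.59 ± 0.78, although its probe sets ranged from 0.92 to 6.59. Adhfe1, an iron-dependent alcohol dehydrogenase, changed by 6.09 ± 0.96.

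Gpsm2, which orients the spindle, measured 11.36, 11.14 and 10.55 in germinal center cells and 8.12, 2.15 and 3.12 in memory cells (6.55 ± 1.02, or 8.38 without it). The mitotic kinase gene Pbk changed by 6.13 and the kinesin gene Kif18b by 6.01. Eme1, a partner of the Mus81 nuclease, measured 9.78, 9.52 and 8.49 against 4.09, 2.75 and 2.91 (6.01 ± 0.32, adjusted p = 6.75e-11, or 6.43 without it), so its memory arrays lay close together. Mnd1, known for meiotic recombination, changed by 5.96 and Mcm10, a replication initiation factor, by 5.88. The 12 largest rises, Mef2b among them, were chosen for a call and no overlap with and without memory replicate 1, and their changes without it were 6.43 to 8.38 beside the bounds of Gcsam, Dnase1 and Tox2. In a fit over the 6 arrays alone, without the spread estimated from the other 18 arrays, Gcsam, Pbk, Kif18b and Mef2b kept these values but missed the threshold.

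**Figure D3:**
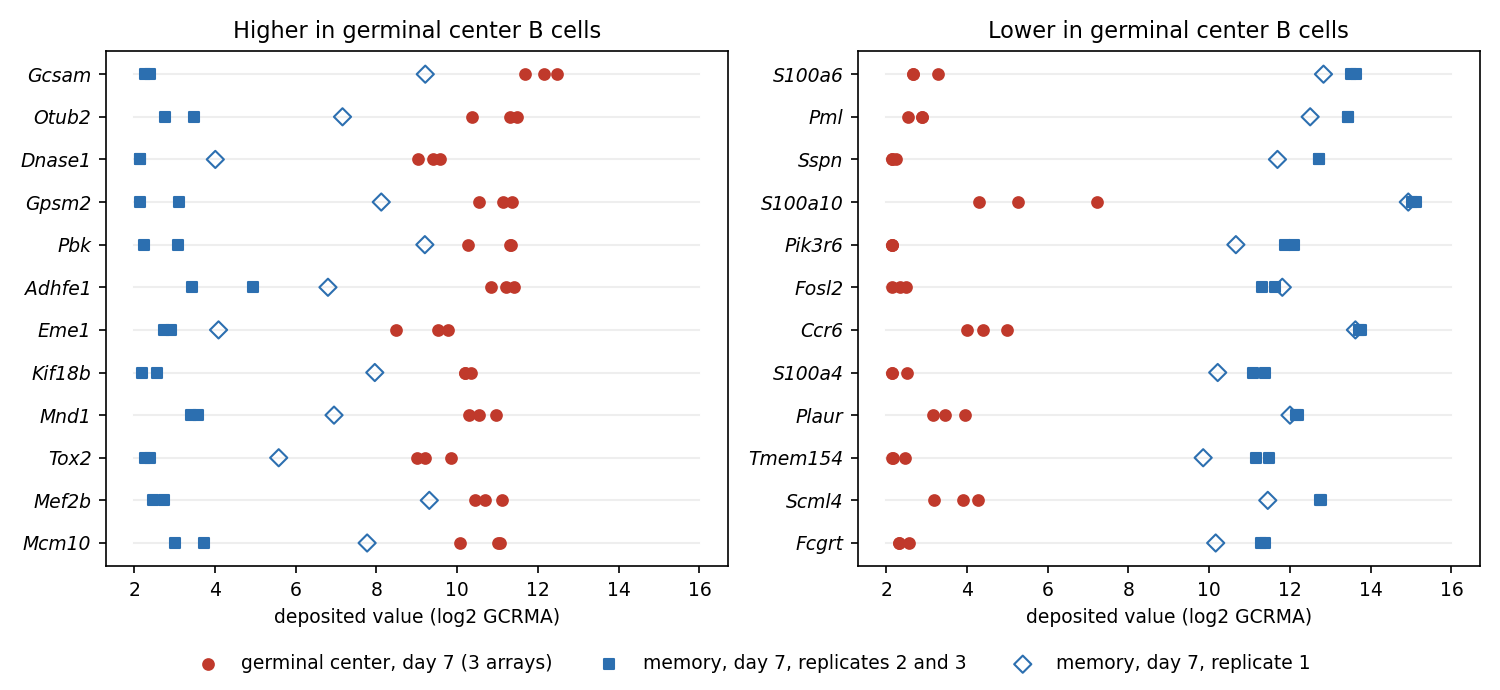
Deposited log2 values (horizontal axis) of the 12 largest rises (left panel) and the 12 largest falls (right panel), with red circles for the 3 germinal center arrays, blue squares for memory replicates 2 and 3, and an open diamond for memory replicate 1. Among rises the diamond lies between the groups, as for Gcsam at 9.21, while among falls it is the lowest memory array in all but Fosl2 and far from the germinal center arrays, as for Pik3r6 at 10.66 against 12.11 and 11.87 on the other memory arrays.

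The germinal center program list held 14 tested genes, of which 8 rose and 1 fell, with a median change of 1.72 (8 and 1 without memory replicate 1, median 2.02). Among all genes tested, 11.6% rose and 12.1% fell. Bcl6 measured 14.19, 14.00 and 13.62 in germinal center cells and 13.04, 12.57 and 12.28 in memory cells, a change of 1.31 ± 0.18 (adjusted p = 1.16e-05 by limma) and of 1.51 without it. The groups did not overlap, yet the gene was well above the floor in memory cells too. S1pr2, a receptor that holds cells in the germinal center, measured 12.87, 12.86 and 12.56 against 10.81, 4.99 and 7.76 (4.91 ± 0.91, or 6.39 without it). Mef2b, a transcription factor that acts upstream of Bcl6, measured 11.12, 10.68 and 10.44 against 9.31, 2.47 and 2.73 (5.91 ± 1.16, and 8.15 without memory replicate 1). Memory replicate 1 was again the highest memory array for both.

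Some program members were as high in memory replicate 1 as in germinal center cells or nearly so. Mybl1, a MYB family transcription factor, measured 9.88, 9.96 and 10.43 in germinal center cells and 9.95, 3.27 and 3.61 in memory cells, so the groups overlapped (4.48 ± 1.10, and 6.65 without memory replicate 1). Rgs13, which dampens chemokine receptor signals, measured 11.16, 11.34 and 11.63 against 10.82, 5.47 and 6.15 (3.90 ± 0.89, and 5.57 without it). Efnb1, a guidance ligand, changed by 3.35 and Basp1, a membrane-associated protein gene, by 2.02. Fas, a death receptor raised on germinal center cells, measured 12.65, 12.73 and 12.95 in germinal center cells and 12.71, 11.77 and 11.55 in memory cells and was not called (0.77, adjusted p = 0.275). The glycosylase gene Neil1 was not called either (0.76, adjusted p = 0.252). Lmo2, an adaptor of transcription factors, was the member that fell (-1.18 ± 0.38, adjusted p = 0.0174). That call was lost when memory replicate 2 (-1.06), memory replicate 3 (-1.11) or germinal center replicate 2 (-1.02) was left out. Over the 6 arrays alone, 2 members rose, and 10 did so when memory replicate 1 was also left out.

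Of 27 tested mitosis genes, 26 rose in germinal center cells and none fell, with a median change of 3.34, and 26 rose without memory replicate 1, with a median of 4.41. Plk1, a kinase that drives entry into and passage through mitosis, measured 10.30, 10.25 and 9.0 in germinal center cells and 6.37, 2.26 and 3.51 in memory cells (5.80 ± 0.68, adjusted p = 2.30e-06 by limma, or 6.97 without it). Aurka, the centrosomal Aurora kinase, measured 11.18, 11.22 and 10.01 against 7.94, 3.76 and 5.03 (5.23 ± 0.72, or 6.41 without it). Each germinal center array lay above each memory array in both kinases. The kinesin gene Kif2c changed by 5.33, the kinetochore gene Nuf2 by 5.06 and the centromere protein gene Cenpf by 4.84. Cdc20, an activator of the anaphase-promoting complex, measured 12.29, 12.06 and 11.93 against 10.36, 7.54 and 8.08 (3.43 ± 0.48, or 4.28 without it). Ube2c, the ubiquitin-conjugating enzyme of that complex, measured 12.74, 13.04 and 13.25 against 12.38, 10.33 and 9.96 (2.12 ± 0.45, and 2.87 without memory replicate 1). Mki67, the proliferation marker Ki-67, measured 14.88, 14.90 and 14.63 against 13.71, 12.15 and 12.23 (2.11 ± 0.50, or 2.61 without it). Ki-67 was thus bright in both groups. Cenpa, a centromeric histone, was the member not called (0.39, adjusted p = 0.318).

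Memory replicate 1 was above both other memory arrays in all 27 mitosis genes tested. The list averaged 12.41, 12.38 and 12.01 on the germinal center arrays and 10.79, 7.60 and 8.15 on the memory arrays. In the fit over the 6 arrays alone, 15 mitosis genes rose, and 26 did so when memory replicate 1 was also left out. What sets that array apart was not tested.

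The list of DNA replication and nucleotide synthesis had 33 tested genes, of which 29 rose and none fell with all arrays and without memory replicate 1 (medians 2.54 and 2.97). Mcm5 measured 14.04, 13.99 and 13.85 in germinal center cells and 12.36, 9.91 and 10.02 in memory cells (3.20 ± 0.47, adjusted p = 2.81e-05 by limma, or 4.0 without it). Its helicase partner Mcm6 measured 14.26, 14.13 and 13.86 against 12.86, 11.52 and 11.52 (2.12 ± 0.28, or 2.56 without it). Both were well above the floor in memory cells. Cdc45, a factor of origin firing, measured 10.85, 10.46 and 9.91 against 8.76, 3.15 and 3.25 (5.35 ± 0.90, or 7.21 without it). Its probe sets ranged from 1.43 to 5.35. Cdc6, which loads the helicase, measured 12.39, 12.45 and 11.35 against 10.40, 5.23 and 4.85 (5.24 ± 1.0, or 7.02 without it). The origin recognition gene Orc1 changed by 4.84. Pcna, the sliding clamp, measured 14.87, 14.85 and 14.59 in germinal center cells and 14.27, 13.16 and 13.48 in memory cells. Its change of 1.13 ± 0.20 dropped under the size threshold, to 0.90, without memory replicate 2. Memory replicate 1 was the highest memory array in 32 of the 33 genes, and 16 of them rose over the 6 arrays alone (29 without memory replicate 1).

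Somatic mutation and DNA repair genes rose in 19 of 26 cases and fell in none, with a median change of 1.85 (19 without memory replicate 1, median 2.23). Ung, the glycosylase that removes uracil from DNA, measured 11.99, 12.02 and 11.32 in germinal center cells and 9.91, 8.93 and 9.21 in memory cells (2.43 ± 0.26, adjusted p = 6.57e-07 by limma, or 2.71 without it). Polh, the polymerase that makes mutations at A and T pairs, measured 13.62, 13.42 and 13.62 against 12.85, 11.19 and 10.93 (1.90, or 2.49 without it). Both mutation genes were separated between the groups. Rad51ap1, a factor of homologous recombination, measured 10.72, 10.43 and 9.59 against 7.81, 4.17 and 2.58 (5.39 ± 0.86, or 6.87 without it). Exo1, a mismatch repair exonuclease, changed by 4.62, and Fancd2, of the crosslink repair pathway, by 3.91. Trp53bp1 and Prkdc, which serve end joining in class switching, were not called (-0.12, adjusted p = 0.523, and 0.15, adjusted p = 0.741). Over the 6 arrays alone, 15 of these genes rose.

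Among 20 cyclins, E2F factors and kinases of G1, 14 rose and 2 fell (median 1.64), and 16 rose and 2 fell without memory replicate 1 (median 2.09). E2f7, a repressing E2F factor that is itself switched on in S phase, measured 9.43, 9.70 and 9.03 in germinal center cells and 7.86, 2.16 and 2.15 in memory cells (5.33 ± 1.01, or at least 126-fold higher without it). Mybl2, a subunit of the complex that activates mitotic genes, measured 10.44, 10.14 and 9.56 against 7.75, 3.17 and 3.49 (5.24, or 6.72 without it). Foxm1, its partner on those genes, changed by 4.01, the repressing factor E2f8 by 3.80 and the activating factor E2f1 by 3.65. Ccnd2 went the other way. This G1 cyclin measured 2.63, 4.28 and 3.10 in germinal center cells and 11.63, 11.62 and 11.52 in memory cells (-8.25 ± 0.31, adjusted p = 4.08e-13 by limma, or -8.23 without it), and its probe sets ranged from -8.25 to -1.81. Memory replicate 1 matched the other memory arrays in Ccnd2. Rb1, the retinoblastoma gene that restrains E2F factors, measured 9.69, 9.84 and 10.32 against 11.55, 12.10 and 11.99 (-1.93, or -2.10 without it). Ccnd3, the G1 cyclin known to act in germinal centers, changed by 2.15 on its brightest probe set and by -2.58 on another. With the mean of its probe sets the change was -0.04, so no direction is given. The counts of this list use brightest probe sets, on which Ccnd3 was called higher. Over the 6 arrays alone, 9 genes of this list rose.

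Of 21 genes tied to quiescence, 11 fell in germinal center cells and 1 rose, with a median change of -1.05 (9 and 1 without memory replicate 1, median -1.16). The shares over all genes tested were 12.1% and 11.6%. Klf2, a factor of resting lymphocytes that drives S1pr1, measured 9.59, 10.08 and 8.74 in germinal center cells and 11.57, 13.02 and 12.91 in memory cells (-3.03 ± 0.57, or -3.50 without it). Its relative Klf3 measured 6.29, 4.89 and 4.44 against 11.83, 12.05 and 11.95 (-6.74 ± 0.69, or -6.79 without it). Pik3ip1, an inhibitor of phosphoinositide 3-kinase, measured 5.20, 4.26 and 5.23 against 8.97, 10.39 and 10.29 (-4.99, or -5.44 without it). In each of these 3 genes the groups were apart. Cdkn2c, an inhibitor of the kinases of G1, was the member that rose. It measured 9.87, 9.81 and 10.11 in germinal center cells and 8.29, 6.63 and 6.74 in memory cells (2.71, or 3.25 without it). Over the 6 arrays alone, 7 of the list fell.

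The largest falls led with S100a6, a calcium-binding protein gene on chromosome 3. It measured 3.28, 2.66 and 2.66 in germinal center cells and 12.83, 13.64 and 13.52 in memory cells, a change of -10.46 ± 0.75 (adjusted p = 3.88e-09 by limma) and of -10.71 without it. Pml, which builds nuclear bodies, measured 2.88, 2.53 and 2.88 against 12.50, 13.44 and 13.43 (-10.36 ± 0.48, or -10.67 without it), with probe sets from -10.36 to -3.06. Sspn (sarcospan), a membrane protein gene first known from muscle, measured 2.23, 2.15 and 2.15 against 11.69, 12.73 and 12.73 and was at least 991-fold lower. Germinal center arrays were at or near the floor in all 3 genes, and memory replicate 1 was the lowest memory array in each. Pik3r6, a subunit of the gamma phosphoinositide 3-kinase, lay at 2.15 on every germinal center array, against 10.66, 12.11 and 11.87 in memory cells, and was at least 555-fold lower. Fosl2, an AP-1 subunit, measured 2.34, 2.49 and 2.15 against 11.81, 11.31 and 11.64 (-9.26 ± 0.63, or -9.15 without it). Here memory replicate 1 was the highest memory array.

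Plaur, whose promoter is printed above, measured 3.95, 3.17 and 3.45 in germinal center cells and 12, 12.15 and 12.19 in memory cells (-8.59 ± 0.60, or -8.65 without it). Fcgrt, the Fc receptor that protects IgG from breakdown, measured 2.32, 2.32 and 2.56 against 10.16, 11.37 and 11.28 (-8.54 ± 0.27, or -8.93 without it). The memory arrays of Plaur lay close together, those of Fcgrt farther apart. S100a10 changed by -9.43, S100a4 by -8.62, Tmem154 by -8.57 and Scml4 by -8.54. The 12 largest falls were chosen in the same way, with changes of -10.71 to -8.65 without memory replicate 1 beside the bounds of Sspn and Pik3r6. All 12 passed in the fit over the 6 arrays alone.

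The memory marker list had 15 tested genes, of which 10 fell in germinal center cells and none rose, with a median change of -3.03 (10 and none without memory replicate 1, median -3.50). Ccr6, a chemokine receptor of memory and naive B cells, measured 4.39, 4.01 and 5.0 in germinal center cells and 13.62, 13.76 and 13.70 in memory cells (-9.23 ± 0.29, adjusted p = 6.09e-14 by limma, or -9.26 without it). Cxcr3, a receptor for interferon-induced chemokines, measured 2.79, 2.40 and 2.65 against 10.74, 11.15 and 10.62 (-8.22 ± 0.25, or -8.27 without it). Zbtb32, a transcription factor that restrains recall responses in the mouse, measured 3.42, 2.50 and 2.22 against 8.89, 10.50 and 9.93 (-7.06 ± 0.35, or -7.50 without it). In these 3 genes the groups were several log2 units apart, and Zbtb32 varied most within groups. Hhex, a transcription factor needed for mouse memory B cells, changed by -6.72.

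The costimulatory ligands given here were all lower in germinal center cells but differed in level. Cd80 was at background in germinal center cells, at 2.25, 2.38 and 2.38, against 6.62, 6.54 and 6.70 in memory cells, and was at least 18.3-fold lower (adjusted p = 1.11e-06). Cd274 (PD-L1) measured 7.94, 8.96 and 9.60 against 12.91, 13.59 and 13.59 (-4.53, or -4.76 without it). Pdcd1lg2 measured 8.05, 7.46 and 8.55 against 10.54, 10.85 and 10.92 (-2.75 ± 0.50, or -2.87 without it). Both PD-1 ligands were above the floor in germinal center cells. Nt5e (CD73), another marker of mouse memory subsets, measured 10.67, 9.76 and 11.56 in germinal center cells and 10.51, 9.34 and 10.59 in memory cells, with overlap and no call (0.52, adjusted p = 0.235).

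In the S100, annexin and galectin list, 11 of 20 tested genes fell and 1 rose, with a median of -1.82 (12 and 1 without memory replicate 1, median -1.74). For all genes tested the shares were 12.1% and 11.6%. In all, 7 genes of the list fell when probe sets open to cross-hybridization were left out. Lgals3 (galectin-3) lay at 2.15 on all germinal center arrays, against 8.88, 10.08 and 10.05 in memory cells, and was at least 151-fold lower. Capg, an actin-capping protein gene, measured 7.79, 7.10 and 8.22 against 13.94, 14.41 and 14.29 (-6.51 ± 0.23, or -6.65 without it). Ahnak, a large scaffold protein gene, measured 7.35, 8.41 and 7.85 against 13.86, 14.18 and 14.25 (-6.23 ± 0.29, or -6.35 without it). Its probe sets ranged from -6.23 to -1.86. Lgals9 (galectin-9) fell by 1.80. Anxa2 (annexin A2) was the member that rose, with 13.66, 13.88 and 13.83 in germinal center cells and 12.86, 11.73 and 11.65 in memory cells (1.71, or 2.10 without it). With the mean of its probe sets the Anxa2 change was 0.58 and not called.

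Receptors of migration and adhesion fell in 11 of 20 cases and rose in 1, with a median change of -1.33 (11 and 1 without memory replicate 1, median -1.47). Among all genes tested, 12.1% fell and 11.6% rose. Ccr7, which guides cells to the T zone, measured 9.12, 8.51 and 9.32 in germinal center cells and 13.80, 14.28 and 14.23 in memory cells (-5.12 ± 0.72, adjusted p = 1.72e-05 by limma, or -5.27 without it). Gpr183 (EBI2), which draws B cells to the outer follicle, measured 8.07, 7.73 and 7.21 against 10.52, 12.12 and 11.98 (-3.87 ± 0.34, or -4.38 without it). S1pr1, the receptor for egress, measured 4.96, 6.46 and 6.65 against 8.35, 10.66 and 10.31 (-3.75 ± 0.57, or -4.46 without it). In the last 2 genes memory replicate 1 was more than 1 log2 unit below the other memory arrays. Itgb7, an integrin chain of gut homing, measured 8.52, 7.98 and 8.27 against 12.17, 13.20 and 13.25 (-4.62, or -4.97 without it), and the scavenging chemokine receptor gene Ackr2 changed by -3.98. The gene of this list that rose was S1pr2, given above.

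Cytokine receptor genes fell in 14 of 26 cases and rose in 2, with a median of -1.02 (15 and 2 without memory replicate 1, median -1.20). Over all genes, 12.1% fell and 11.6% rose, so rises were no more frequent in this list. Il1r2, the decoy receptor for interleukin-1, measured 3.94, 3.23 and 5.06 in germinal center cells and 10.83, 9.29 and 10.69 in memory cells (-6.19 ± 0.80, or -5.91 without it). Il6st, the shared chain of interleukin-6 receptors, changed by -4.00. The 2 that rose, Bmpr1a (1.97) and Tgfbr1 (1.30), belong to the TGF-beta family, and their changes with the mean of their probe sets, 0.79 and 0.70, were not called. Interferon-stimulated genes fell in 9 of 16 cases and rose in none, with a median of -1.33 (9 without memory replicate 1, median -1.42). Mx1, an antiviral GTPase, measured 3.20, 4.66 and 3.57 in germinal center cells and 8.96, 10.81 and 10.31 in memory cells (-6.22 ± 0.42, or -6.75 without it). The antiviral genes Ifit3 and Rsad2 changed by -4.35 and -3.67. With a stricter filter on dim genes, 5 interferon-stimulated genes fell.

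Of 27 early activation genes, 16 fell in germinal center cells and none rose, with a median of -1.40 (16 without memory replicate 1, median -1.65). The shares over all genes tested were 12.1% and 11.6%. Nr4a2, an orphan nuclear receptor induced by receptor signals, measured 6.78, 6.08 and 5.52 in germinal center cells and 11.76, 11.90 and 11.99 in memory cells (-5.76 ± 0.29, adjusted p = 2.30e-11 by limma, or -5.82 without it). Junb, an AP-1 subunit, measured 7.97, 7.32 and 7.98 against 10.30, 10.46 and 10.45 (-2.65, or -2.70 without it). Fosl2, given above, belongs here too, and none of these 3 genes overlapped between the groups. Myc, a driver of growth that a minority of germinal center cells carry, measured 8.56, 8.58 and 10.87 in germinal center cells and 11.67, 13.07 and 12.96 in memory cells (-3.23 ± 0.63, or -3.68 without it). Germinal center replicate 3 and memory replicate 1 lay closest to each other. The immediate early genes Ier2 and Egr3 changed by -3.62 and -3.03.

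Genes known to respond to tissue dissociation and heat were counted beside them. Of 17 tested, 4 fell and 1 rose, with a median of -0.08 (3 and none without memory replicate 1, median -0.12). Over all genes, 12.1% fell and 11.6% rose, or 13.1% and 12.7% without that array. The list averaged 10.46, 10.36 and 10.24 on the germinal center arrays and 10.64, 10.89 and 11.24 on the memory arrays. Its part in the early activation result was not tested. Socs3, a feedback inhibitor of cytokine signals, fell, at 2.87, 2.41 and 3.0 in germinal center cells and 10.68, 11.13 and 11.62 in memory cells (-8.38 ± 0.52, or -8.62 without it). Hspa1a, an inducible heat shock protein gene, was the member that rose, at 10.21, 9.53 and 8.48 in germinal center cells and 2.75, 5.45 and 8.95 in memory cells. It overlapped between the groups, and without memory replicate 1 its change of 3.69 was 2.21 with an adjusted p of 0.0829.

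Of 17 plasma cell genes tested, 3 were higher and 5 lower, with a median of -0.34 (3 and 5 without memory replicate 1, median -0.40). Of all genes tested, 11.6% were higher and 12.1% lower. Xbp1, which builds the secretory apparatus, measured 12.22, 12.12 and 11.75 in germinal center cells and 10.68, 11.04 and 10.55 in memory cells (1.27 ± 0.20, or 1.24 without it), and Derl3, of protein quality control, changed by 2.36. Irf4, needed for plasma cell formation, measured 12.76, 12.89 and 12.32 against 14.02, 14.53 and 14.38 (-1.65 ± 0.14, adjusted p = 3.72e-08 by limma, or -1.80 without it). Fkbp11, a secretory pathway foldase, measured 2.84, 2.80 and 2.27 against 7.23, 7.85 and 7.11 (-4.76, or -4.84 without it). Derl3 and Fkbp11, both of the secretory pathway, thus went opposite ways. Tnfrsf17 (BCMA), a survival receptor of plasma cells, lay at 2.15 in germinal center cells, against 4.79, 4.89 and 5.13 in memory cells, and was at least 5.68-fold lower. Prdm1, which encodes Blimp-1, measured 3.49, 3.49 and 3.14 against 3.72, 6.31 and 5.92 (-1.94 ± 0.55, or -2.74 without it). That Prdm1 call was lost without memory replicate 2 (-1.45, adjusted p = 0.0606). Slpi, a protease inhibitor of the plasma cell list, was not called (-0.55). Sdc1 (CD138) measured 7.74, 8.42 and 6.10 against 8.73, 8.52 and 8.60 and was not called (-1.20, adjusted p = 0.151).

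Of 17 B cell transcription factors outside these programs, 2 were higher and 2 lower, with a median of -0.10 (3 and 2 without memory replicate 1, median -0.07). These shares were close to the 11.6% and 12.1% of all genes tested. Bach2, which opposes plasma cell fate, measured 13.18, 14.04 and 14.23 in germinal center cells and 13.41, 12.23 and 11.86 in memory cells (1.32, or 1.77 without it), with overlap. Its change was 1.0, and no longer past the size threshold, without memory replicate 3. Pax5, the B lineage factor, measured 6.39, 5.97 and 4.84 against 4.08, 3.81 and 4.08 (1.74, or 1.79 without it). The Pax5 call was lost without germinal center replicate 1 (1.42, adjusted p = 0.0532) and with the mean of its probe sets (0.87). Id2, an inhibitor of E proteins, fell by 2.81, but by 0.81, and uncalled, once cross-hybridizing probe sets were left out. Its relative Id3 changed by 1.39 without a call, and by 2.11 with one when memory replicate 1 was left out. Pou2f2 (Oct-2) changed by -1.21, or by -0.81 with the mean of its probe sets.

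The BCL2 family had 3 lower and no higher of 11 tested genes and a median of -0.10 (3 without memory replicate 1, median -0.24), against 12.1% lower and 11.6% higher among all genes tested. Bcl2, the survival factor of resting lymphocytes, measured 5.73, 5.36 and 5.12 in germinal center cells and 11.27, 11.81 and 11.74 in memory cells (-6.20 ± 0.31, adjusted p = 2.30e-11 by limma, or -6.37 without it). Mcl1, the member on which germinal center cells depend in the mouse, was not called (-0.01, adjusted p = 1.0). Bcl2l2 changed by -2.08, or by -0.52 and uncalled with the mean of its probe sets.

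Of 14 genes of class II presentation and costimulation, 1 fell and none rose, with a median of -0.48 (1 without memory replicate 1, median -0.49). That gene was H2-Oa, which modulates peptide loading, at 12.69, 12.34 and 12.76 in germinal center cells and 14.00, 14.08 and 14.01 in memory cells (-1.43, or -1.45 without it). Of 25 antigen receptor signalling genes, 3 fell and none rose, with a median of -0.28 (3 without memory replicate 1, median -0.32), close to the 12.1% of all genes called lower. Ptpn22, a phosphatase that dampens receptor signals, measured 7.62, 6.94 and 6.74 against 12.31, 13.49 and 13.27 (-5.92 ± 0.31, or -6.28 without it). Malt1, a protease of the NF-kappaB route, changed by -1.66.

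The metabolic lists are to be read beside the 11.6% of all genes called higher and the 12.1% called lower. Glycolysis had 3 higher and 2 lower of 15 (median 0.25, and 0.32 without memory replicate 1), with the enzyme gene Tpi1 at 1.43 and the glucose transporter gene Slc2a3 at -2.10. The respiratory chain had 1 higher and none lower of 19 (median 0.40, and 3 higher with a median of 0.49 without memory replicate 1), the called gene being Cyc1, cytochrome c1, at 1.15. None of 19 ribosome biogenesis genes was called in either direction, with or without memory replicate 1 (medians 0.24 and 0.26). Polycomb and DNA methylation genes had 3 higher and 5 lower of 17 (median -0.27, and 3 and 6 with a median of -0.33 without memory replicate 1). Ezh2, the histone methyltransferase of Polycomb complex 2, measured 13.43, 13.46 and 13.44 in germinal center cells and 12.46, 11.81 and 11.72 in memory cells (1.45 ± 0.18, adjusted p = 3.85e-06 by limma, or 1.68 without it). Subunits of Polycomb complex 1 went both ways, since Cbx2 measured 6.42, 6.53 and 5.62 against 3.46, 2.68 and 2.61 (3.27, or 3.55 without it) while Bmi1 changed by -1.59. The DNA demethylase gene Tet2 changed by -3.59 and the histone demethylase gene Kdm6b by -1.38.

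Markers of other cells were read on the same arrays, and their counts stand against the 11.6% of all genes called higher and the 12.1% called lower. Of 14 T cell markers, 10 were at background on all 6 arrays, Cd3e, Cd3d, Cd3g and Cd4 at the floor among them, and 1 of 10 tested rose and 1 fell, with and without memory replicate 1. Lat, an adaptor of T cell receptor signalling, measured 7.00, 5.75 and 6.79 in germinal center cells and 5.40, 2.15 and 2.15 in memory cells (3.28, or at least 17.2-fold higher without it). Cd5 measured 2.63, 2.46 and 2.63 against 5.59, 6.57 and 6.43 (-3.62 ± 0.38, or -3.93 without it), although cells binding antibody to CD5 had been removed from both groups. Of 11 NK, erythroid and platelet markers, 10 were at background on all 6 arrays, and none of the 3 tested was called. In the sort marker list, Cd5 and Adgre1 fell among 6 tested and none rose. Naive follicular B cell markers had 2 lower of 6 tested (median -0.92, and 3 lower with a median of -1.13 without memory replicate 1).

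Myeloid and macrophage markers were uneven, some at background and others well above the floor. Of 20, 8 were at background on all 6 arrays, and of 13 tested 4 fell in germinal center cells and none rose (median -0.54, and 3 fell without memory replicate 1, median 0.00). The list averaged 3.96, 3.64 and 3.04 on the germinal center arrays and 5.16, 3.73 and 4.09 on the memory arrays, highest in memory replicate 1. S100a8 and S100a9, neutrophil proteins, measured 12.36 and 13.56 on that array. On the other memory arrays S100a8 was 2.15 and 3.28 and S100a9 was 2.15 and 7.47. On the germinal center arrays S100a8 was 7.27, 7.77 and 2.15 and S100a9 was 9.38, 10.03 and 2.15, and neither gene was called. Adgre1, which encodes the depleted F4/80 antigen, measured 2.15, 2.24 and 2.18 in germinal center cells and 5.22, 5.81 and 5.95 in memory cells, at least 9.38-fold lower. Cd68, a lysosomal protein of macrophages, measured 7.67, 7.92 and 8.55 against 10.60, 11.42 and 11 (-2.96, or -3.16 without it), and Mpeg1, a pore-forming protein also known in B cells, 9.28, 8.48 and 9.44 against 11.35, 12 and 11.47 (-2.54, or -2.67 without it). In these 3 genes memory replicate 1 was the lowest memory array. Lysozyme, Lyz2, measured 7.24, 3.87 and 3.16 against 11.17, 7.50 and 8.36 (-4.25 ± 1.42, adjusted p = 0.0215). The Lyz2 call was lost without memory replicate 1 (-3.17), germinal center replicate 2 (-3.81) or germinal center replicate 3 (-3.46). The part of myeloid RNA in the falls listed above was not tested.

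**Figure D4:**
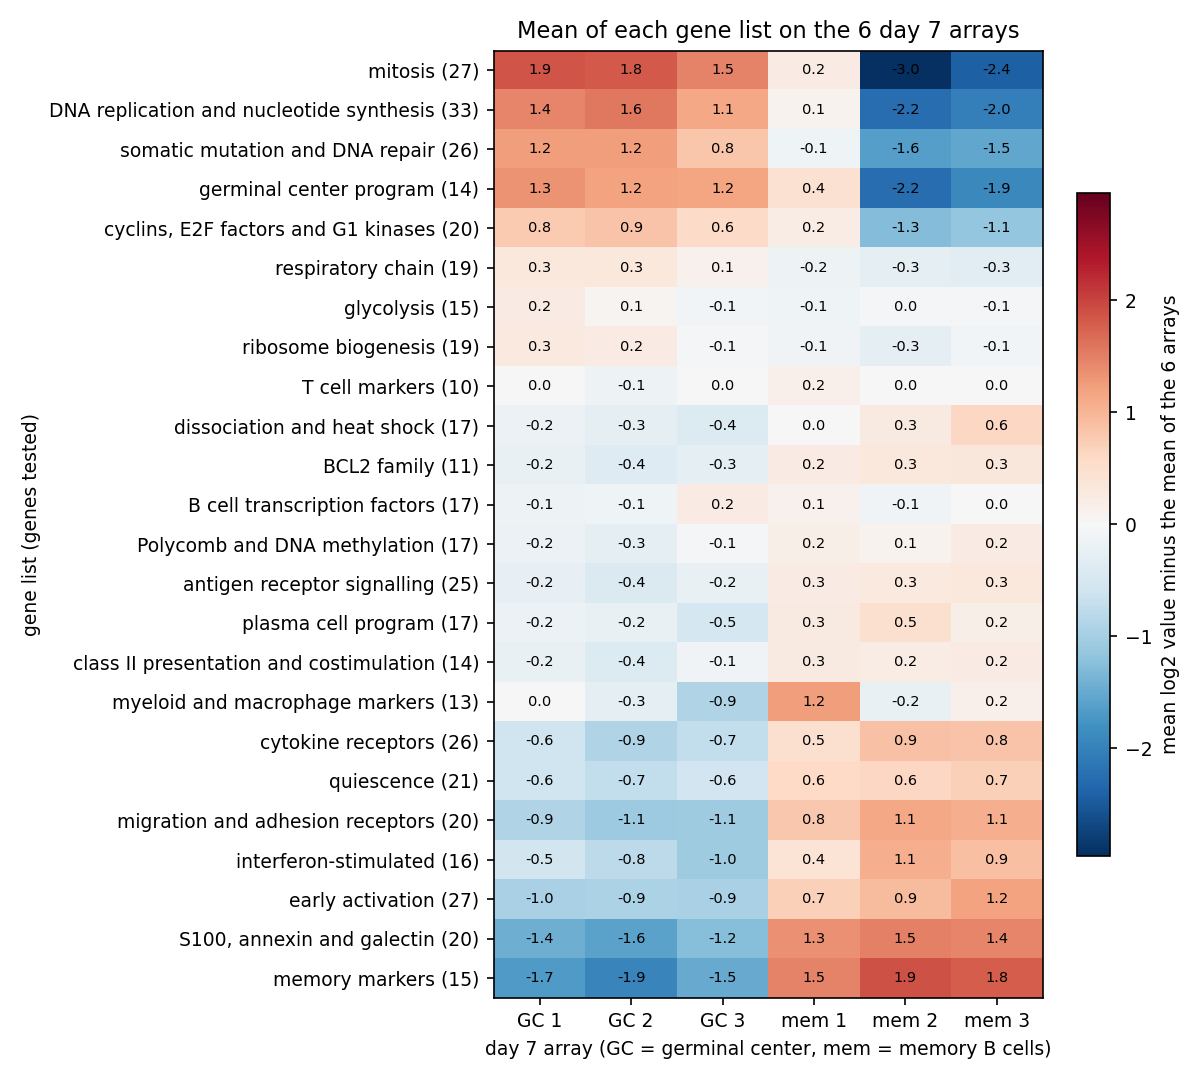
Mean deposited log2 value of each gene list with 10 or more tested genes (rows) on each of the 6 day 7 arrays (columns, germinal center left, memory right), as the difference from the mean of the 6 arrays. The mitosis list averaged 12.41, 12.38 and 12.01 in germinal center cells and 10.79, 7.60 and 8.15 in memory cells, and the memory markers 7.05, 6.78 and 7.23 against 10.19, 10.61 and 10.52.

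Replication genes averaged 12.34, 12.46 and 12.03 in germinal center cells and 10.99, 8.64 and 8.87 in memory cells, and repair genes 10.76, 10.74 and 10.34 against 9.38, 7.89 and 7.97. The germinal center program averaged 12.45, 12.29 and 12.29 against 11.55, 8.87 and 9.21. In all 3 lists memory replicate 1 lay between the groups, nearer to the germinal center arrays than to the other memory arrays. Early activation genes averaged 10.18, 10.22 and 10.20 against 11.85, 12.09 and 12.35, with memory replicate 1 the lowest memory array. Plasma cell genes averaged 9.41, 9.35 and 9.06 against 9.84, 10.04 and 9.76. The genes that moved most when memory replicate 1 was left out included Csrp2, a LIM domain protein gene, at 12.72, 12.67 and 12.15 in germinal center cells and 11.08, 4.01 and 6.07 in memory cells, whose change was 5.46 with the array and 7.47 without it. Hbb-bh1, an embryonic globin gene, measured 11.13, 11.23 and 11.75 against 11.33, 3.03 and 5.09 (4.89, and 7.31 without it). The centromere protein gene Cenpi changed by 4.91, and by 6.92 without it, and the recombination gene Rad54b by 5.45, and by 7.46 without it. These 4 genes missed the threshold over the 6 arrays alone.

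The same contrast was measured at day 40 on 6 other arrays, 3 of germinal center and 3 of memory cells sorted by the same gates, with no array in common. There, 1711 genes were higher in germinal center cells (15.3%) and 1416 lower (12.6%). Of these, 1040 were higher on both days, which is 80.1% of the day 7 list and 60.8% of the day 40 list, and 957 were lower on both, which is 70.7% and 67.6%. Opposite directions were called for 15 genes. The difference of the changes, day 40 minus day 7, passed the threshold upward in 325 genes (2.9%) and downward in 228 (2.03%), and in 324 and 241 without memory replicate 1 of day 7, with 451 shared. Mitosis genes had a median change of 3.34 at day 7, or 4.41 without memory replicate 1, and of 5.14 at day 40. Replication genes had medians of 2.54 at day 7, or 2.97 without memory replicate 1, and of 2.90 at day 40.

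Some genes differed between the days in the direction or size of their change. Gstt1, a glutathione transferase, measured 4.41, 3.96 and 3.55 in germinal center cells of day 7 and 7.09, 8.72 and 8.45 in memory cells (-4.11, or -4.61 without it). At day 40 it measured 10.10, 10.11 and 9.99 against 5.12, 4.66 and 3.53 (5.63), so its direction turned. Its neighbour in the family, Gstt3, changed by -3.26 at day 7 and 3.51 at day 40. Pde2a, a cyclic nucleotide phosphodiesterase, measured 10.12, 8.79 and 9.47 against 4.32, 3.40 and 4.54 at day 7 (5.37, or 5.49 without it) and changed by -1.29 at day 40. Stat4, a cytokine signal transducer, measured 9.96, 9.87 and 10.18 against 11.36, 11.75 and 11.78 at day 7 (-1.63, or -1.76 without it) and changed by -8.06 at day 40. Mapk12, a stress kinase gene, was not called at day 7 (0.59) and measured 2.26, 2.27 and 2.81 against 9.61, 9.17 and 9.54 at day 40 (-6.99). Trpm5, an ion channel gene, was at background in both groups at day 7 and measured 7.96, 7.88 and 8.14 against 2.15 on each memory array at day 40. Among the falls of day 7, S100a4 changed by -8.62 at day 7 and -2.45 at day 40, and Ccnd2 by -8.25 and -2.84. Pdcd1lg2 (-2.75 and -6.41) and Bcl2 (-6.20 and -9.37) differed more at day 40.

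**Figure D5:**
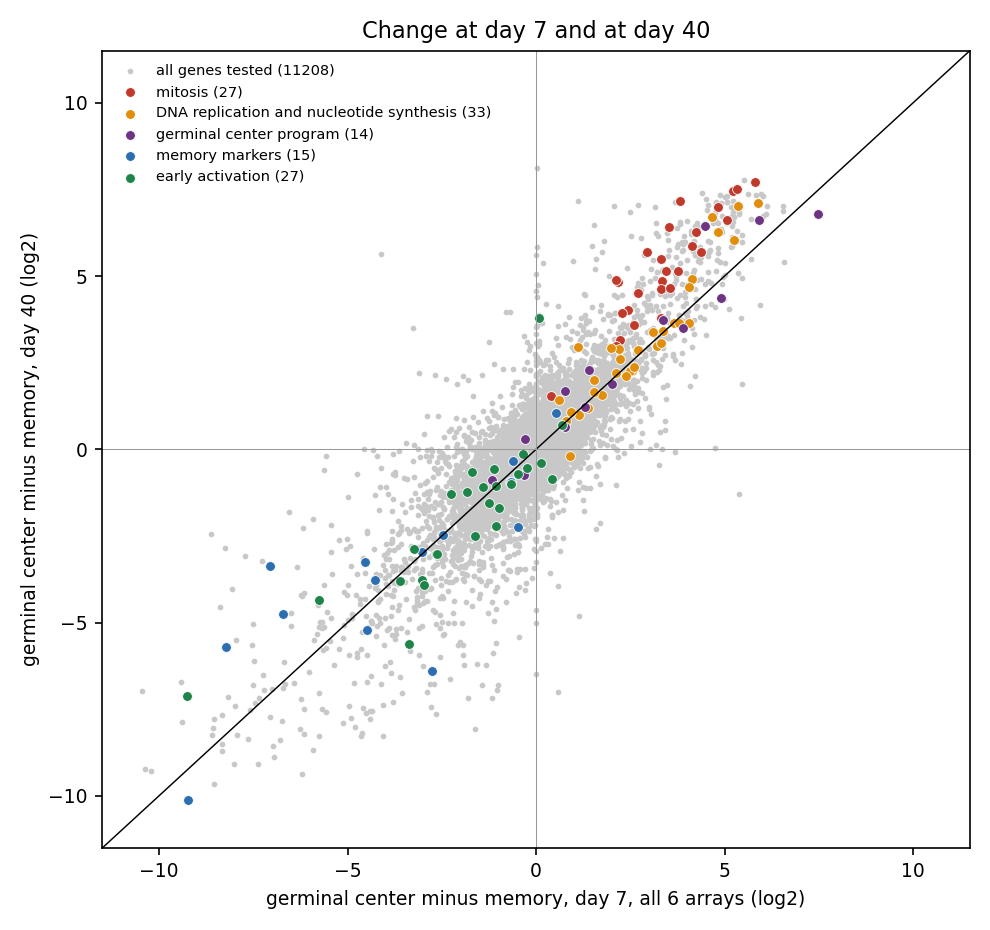
Log2 change, germinal center minus memory, of each gene tested at day 7 (horizontal axis) and at day 40 (vertical axis), with 5 gene lists in colour and the diagonal marking equal values. Changes correlated at 0.842 across the 11208 genes, or 0.849 without memory replicate 1, while Gstt1 changed by -4.11 at day 7 and 5.63 at day 40, and all 27 mitosis genes had a larger change at day 40 (24 of 27 against day 7 without memory replicate 1). The test of the difference passed for 2 of the 27, and for 1 without that array.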

How the data were processed

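The series holds 24 Affymetrix Mouse Genome 430 2.0 arrays of sorted B cell RNA, in 8 groups of 3. The values are log2 GCRMA summaries per probe set, deposited by the authors per the submitters' processing notes. The GCRMA version is not given in the sources used here, and no background or normalization step was added. Of 45101 probe sets, 34945 named 1 gene, 932 several, 9160 none, and 64 were controls. Each gene was represented by its brightest probe set over all arrays, and 11208 genes above the array median on at least 3 of the 24 arrays were tested. Changes were fitted with limma 3.58.1 (R 4.3.3) in 1 model over all 24 arrays with a mean per group, and p-values were adjusted by the Benjamini-Hochberg method over all genes. Tables and figures used Python 3.11.15, pandas 2.3.3 and matplotlib 3.10.9, and the fit was tested on simulated data.

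Genes, lists (27, with 525 genes, of which 487 had a probe set and 455 were tested) and tests were chosen with earlier results of these data known. Named genes were the 12 largest rises and falls called and not overlapping with and without memory replicate 1, up to 6 called members of each list in each direction, index genes, sort markers, genes that moved most without memory replicate 1, the largest differences between the days, and markers of other cells. The text leaves out the smallest of these. Labels give no batch or scan date. Deviations of same-numbered arrays correlated at -0.0424, 0.1243 and 0.1573, and those of differently numbered arrays at -0.2086 to 0.0986. These values do not settle whether replicate numbers pair the arrays, and the counts of the Results use no replicate block. Alternatives changed the filter, offset, normalization, probe set choice, prior, array weights, arrays in the fit and the replicate block, and left out each array in turn.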

Additional observations from a re-analysis of the deposited data

Results flagged for a closer look

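The germinal center minus memory change differed between the days, by limma's test of the difference (adjusted p below 0.05 and size of at least 1), for 34 of the genes named here. Values are day 40 minus day 7 on the log2 scale, so a positive value means that the gene was relatively higher in germinal center cells at day 40. In 6 of the 34 at least 1 of the 4 groups was at background (Pik3r6, Fkbp11, Tnfrsf17, Adgre1, Ackr3 and Trpm5), so their values depend on the floor and are not exact differences.

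Among genes that were lower in germinal center cells at day 7, the difference was 1.52 for Pik3r6, 2.51 for Cxcr3, 3.71 for Zbtb32, 3.84 for Socs3, 5.41 for Ccnd2 and 6.17 for S100a4. Capg and Ahnak differed by 1.78 and 2.02, Nr4a2 by 1.40 and Il1r2 by 3.91. A negative difference was found for Pdcd1lg2 (-3.66), Bcl2 (-3.17), Gpr183 (-2.28), Itgb7 (-3.57), Lgals9 (-5.38) and Ptpn22 (-2.77).

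Of 17 plasma cell genes tested, 5 differed upward and none downward, against 2.9% and 2.03% of all genes tested. Named ones were Prdm1 at 4.05, Fkbp11 at 4.06, Tnfrsf17 at 2.79 and Slpi at 2.49. Prdm1 changed by -1.94 at day 7 and by 2.10 at day 40. Of the mitosis list, Ube2c differed by 2.77.

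Markers of other cells were among them, with Cd5 at 3.56, Adgre1 at 1.67, Cd68 at 3.40 and Lat at -2.78. The naming rule for differences between the days took Gstt1 (9.74), Gstt3 (6.77) and Trpm5 (5.82) upward. Downward it took Mapk12 (-7.58), Pde2a (-6.66), the scavenging receptor gene Ackr3 (-6.47), Stat4 (-6.43), the phosphatase gene Dusp3 (-6.00) and the semaphorin gene Sema4f (-5.97). At day 7 Ackr3 was at background in both groups. Dusp3 changed by -1.18 at day 7 (-0.86 and under the size threshold without germinal center replicate 3) and Sema4f by 1.15 without a call. Sema4f was called at 1.55 to 1.59 without memory replicate 3, germinal center replicate 2 or germinal center replicate 3.

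Some of these calls lay near the threshold. Of the 12 arrays of both days, leaving out 1 ended the call of the day difference for 10 arrays in Nr4a2, with differences of 1.10 to 1.49 there, and for 10 in Adgre1, with 1.36 to 1.74. It did so for 9 arrays in Il1r2 (3.31 to 4.22), for 9 in Lat (-2.81 to -2.23) and for 8 in Cd68 (3.19 to 3.44).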

How the results depend on the processing

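Precision was limited by 3 arrays a group and by the floor of the signal. Of 149 named genes, 78 kept their day 7 direction and side of the threshold under every alternative, and 109 of 149 did so for the difference between days. The counts of 1298 higher and 1354 lower genes ranged over 1125 to 1452 and 1201 to 1465 with 1 array left out, and were 915 and 1084 over the 6 compared arrays alone. With a replicate block on those 6 arrays, 389 were higher and 581 lower. Whether the replicate numbers reflect a pairing of the arrays was not settled.

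List counts that moved by over 1.5 times did so as follows. Over the compared arrays alone, higher genes numbered 2 in the germinal center program, 15 in mitosis, 16 in replication and 9 among cyclins, and 7 quiescence genes fell, 7 also without memory replicate 1. With the replicate block, higher genes numbered 3 in the germinal center program, 0 in mitosis, 3 in replication, 7 in repair and 3 among cyclins, and lower genes 4 in quiescence, 7 in migration, 9 in early activation, 8 among cytokine receptors and 4 among interferon-stimulated genes. Interferon-stimulated genes fell in 5 cases with the stricter filter, and S100, annexin and galectin genes in 7 without cross-hybridizing probe sets. The day difference had 185 upward calls with the stricter filter, 597 upward and 378 downward with array weights, and 110 and 80 with the replicate block. Ccnd3 reversed to -0.04 with the mean of its probe sets. Over the compared arrays alone, 30 of the 149 named genes lost their day 7 call. Among them were Prdm1, Bach2, Lyz2, Lat, Hspa1a, Bmpr1a and Dusp3. With the replicate block, 62 of the 149 lost it. With array weights Fas was called at 1.05. The causes of these moves were not tested.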
